A study of Mus musculus with 4 samples.

Results

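T cell receptor gene segments are the V, D, J and C pieces from which thymocytes assemble their antigen receptors. They were taken by symbol from RefSeq genes on GRCm38.p6, a mouse assembly. The rule found 270 segments among the 49943 genes on chromosomes 1 to 19, X and Y. They comprised 178 V, 4 D, 80 J and 8 C segments, of which 40 were annotated as pseudogenes. The alpha and delta chains share one locus on chromosome 14 (52427967 to 54224198, 202 segments). The beta locus lies on chromosome 6 (40891296 to 41558371, 53 segments) and the gamma locus on chromosome 13 (19178042 to 19352343, 15 segments).

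Binding was measured by chromatin immunoprecipitation with sequencing in whole thymus of mice of the germline genotype p53 AD/AD at 4 weeks of age. The AD protein forms dimers. There were 2 libraries with an antibody to p53, 1 to PPAR-alpha, a lipid-sensing nuclear receptor, and 1 input library. All groups carried the p53 AD/AD genotype, so no other genotype stood as a control. No summit list of the input was analysed here. A summit is the base of highest pile-up in a called peak. There were 3608 summits in p53 replicate 1, 4767 in replicate 2, and 4070 for PPAR-alpha. Reads were 50 nt long for p53 and 75 nt for PPAR-alpha, so antibody and read length cannot be told apart. Nothing in the labels says that the p53 libraries came from separate mice. No test between antibodies was possible with 1 PPAR-alpha library, and all values below are descriptions of these lists.

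In the thymus, the RAG recombinase joins V to D and J segments in beta and delta, and V to J in alpha and gamma, removing or inverting the DNA between them. The joined exon is then spliced to a C segment. Beta is rearranged before alpha in the main thymocyte lineage, and each step is governed by enhancers near the C segments. The alpha enhancer lies between Trac and Dad1, a gene of protein N-glycosylation, and the beta enhancer between Trbc2 and Trbv31. The gene table holds no enhancer positions, so whether any summit lay on one was not tested. The thymus holds several cell types. Among genes that mark thymocytes, 10 of 12 had a summit within 1 kb in each list, Cd4, Lck and Rag1 among them. The 10 were not the same in each list. Ptcra had none in any list, Rag2 had one in p53 replicate 2 alone, and Cd8a lacked one in p53 replicate 2 alone. None of the 5 B cell, 4 macrophage and 5 thymic epithelial marker genes had one in any of the 3 lists. Over all genes 6.86%, 8.63% and 7.11% had one in p53 replicate 1, replicate 2 and then PPAR-alpha, so 0 in lists this short is also what most genes show. A summit shows binding near a gene and not its expression, and in whole tissue fewer cells with binding and weaker binding per cell cannot be told apart.

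Summits lay mainly at the J and C ends of the alpha and beta loci. Nearly all V segments lacked one, as most genes of 1 kb or less did. Within 1 kb of a summit lay 8 of 270 segments (2.96%) in p53 replicate 1, 13 (4.81%) in p53 replicate 2 and 16 (5.93%) in PPAR-alpha. Over all genes of the table the shares were, as above, 6.86%, 8.63% and 7.11%, so the share of the segments as a whole was not above that of all genes. Segments are short, with a median length of 459 bp against 5956 bp for all genes. Among the 12419 genes of 1 kb or less, a comparison chosen after the values were seen, the shares were 1.59%, 1.88% and 2.08%. In all, 25 segments were near a summit in at least 1 list, 11 of them in 2 or 3 lists and 1, Trbc2, in all 3. The share of all genes near a summit in any list, or in several, was not computed. A segment counted in 2 lists need not have a shared summit. The p53 summits near Traj13, for example, lay 1640 bp apart. Counting summits with scores of 5 or more alone, 4, 0 and 7 segments were near one. Such summits made up 28.7%, 26.3% and 48.1% of the lists, so these counts are not compared between lists. The other 245 of the 270 segments had no summit within 1 kb in any list.

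**Figure D1:**
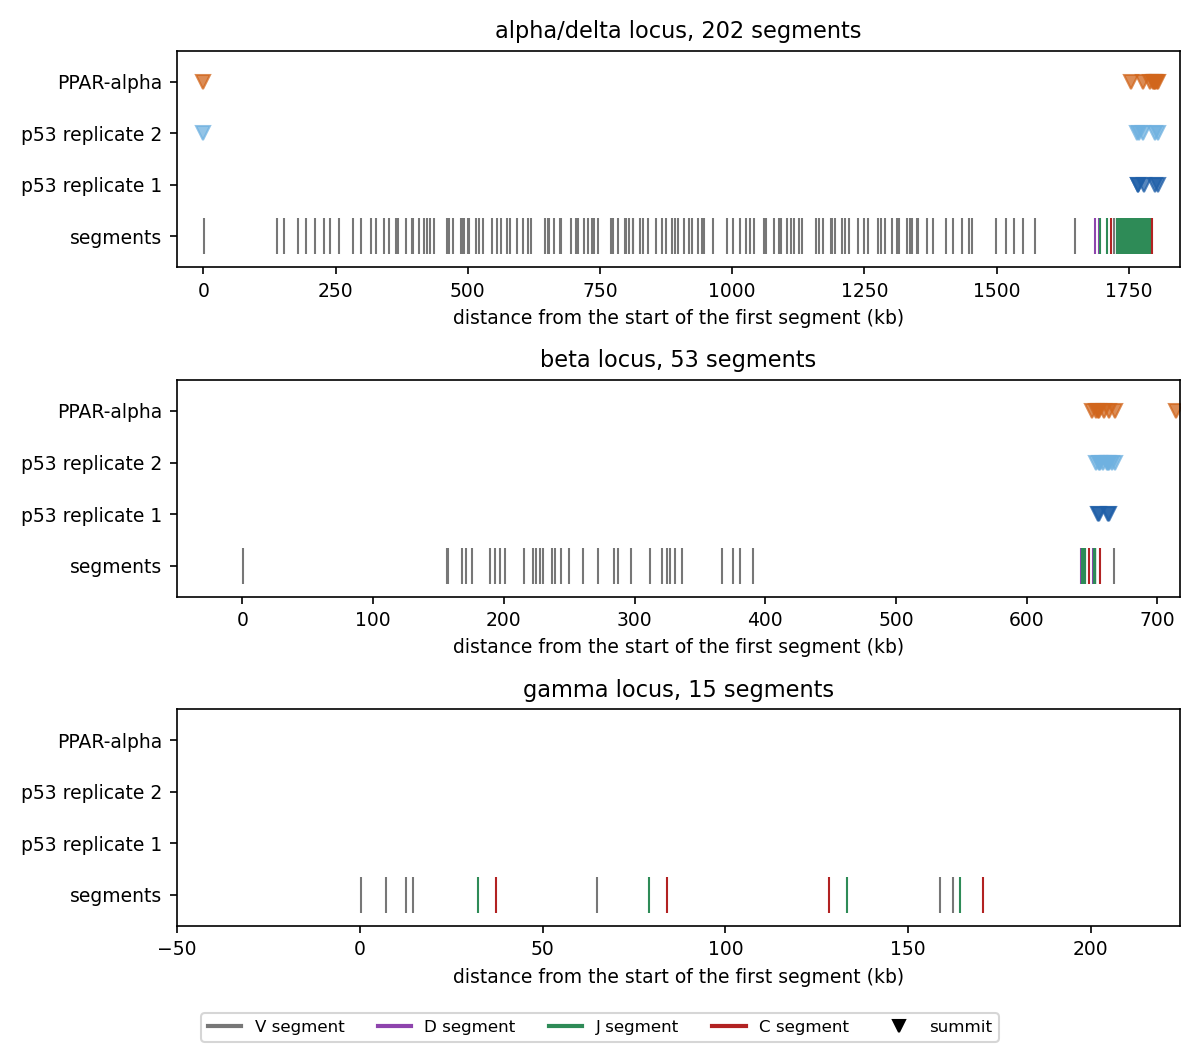
Segments (bottom row of each panel, coloured by class) and summits of the 3 lists (triangles) along the alpha/delta, beta and gamma loci with 50 kb on each side; the x axis is the distance in kb from the first segment. Summits sit at the J and C end of the alpha and beta loci and beside the first V segment of alpha, and no list has one in the gamma locus.

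By class, most of the counts came from J segments. Of the V segments, which encode most of the antigen-binding part of a receptor chain, 0 of 178 were near a summit in p53 replicate 1, 2 (1.12%) in p53 replicate 2 and 2 (1.12%) in PPAR-alpha. Of the 80 J segments, which end the variable exon, 7 (8.75%), 10 (12.5%) and 12 (15.0%) were near one. Of the 8 C segments, which encode the constant and membrane-spanning parts, 1, 1 and 2 were. Over all genes the shares were 6.86%, 8.63% and 7.11%, and among genes of 1 kb or less 1.59%, 1.88% and 2.08%. Low shares are thus common for short genes, and whether V segments fell below them was not tested. The C segments are too few to set against the share of all genes. None of the 4 D segments, the short pieces added to beta and delta chains, had a summit within 1 kb in the 3 lists. The J and V counts are not on equal footing, because alpha J segments start a median of 0.945 kb apart and alpha V segments 9.28 kb apart. One summit therefore reaches several J segments, and only 3, 4 and 4 distinct summits stood behind the J counts of the 3 lists, in the same order.

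**Figure D2:**
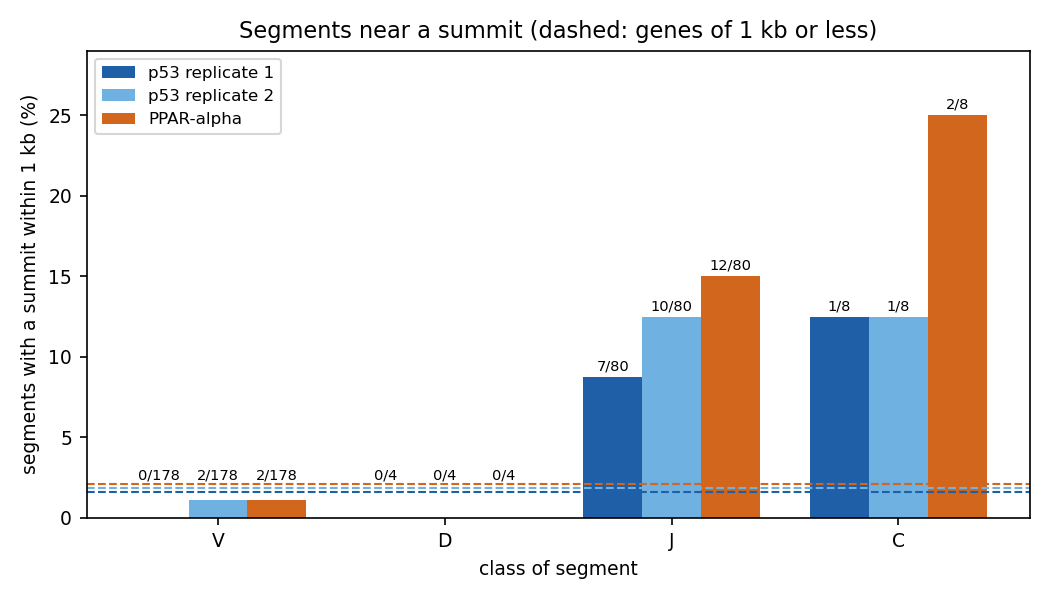
Share of V, D, J and C segments with a summit within 1 kb (bars, in percent, with counts above) in each list; dashed lines give the share of all genes of 1 kb or less in the same list. V and D bars stay under the lines and J and C bars stand above them in all 3 lists, with few distinct summits behind each bar. The lines are not matched to the 8 C segments, which are all longer than 1 kb (1447 to 7786 bp). The D bars rest on 4 segments, too few to set against shares this low.

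Counted over whole loci, without regard to single segments, the spans of alpha/delta, beta and gamma held 3, 4 and 0 summits in p53 replicate 1. They held 3, 8 and 0 in p53 replicate 2, and 4, 6 and 0 in PPAR-alpha. Every one of these 7, 11 and 10 summits lay either between Traj61 and Trac or between Trbd1 and Trbv31. Those stretches cover 94.4 kb, or 3.58%, of the 2638 kb of the 3 spans. They are bounded by annotated segments, but they were singled out after the summits were seen.

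With all summits counted, the beta locus held more than most stretches of its length. It had 0.600, 1.20 and 0.899 summits per 100 kb in both p53 replicates and PPAR-alpha, in this order, and the autosomes had 0.146, 0.193 and 0.165. Its share of the list was 0.111% (exact Clopper-Pearson 95% interval 0.0302 to 0.284%), 0.168% (0.0725 to 0.330%) and 0.147% (0.0541 to 0.321%), and these intervals cover counting error only. The counts of 8 and 6 in p53 replicate 2 and PPAR-alpha fell to 0 without dense runs (summits with 4 or more others of the list within 10 kb), and p53 replicate 1 kept its 4. At scores of 5 or more the 3 lists had 3, 1 and 3. Cutting the autosomes into 3676 consecutive windows of the same length, 8.11%, 2.69% and 4.49% of them held as many summits or more. The alpha/delta locus did not stand apart in this way. It had 0.167, 0.167 and 0.223 summits per 100 kb, and 34.6%, 41.9% and 29.5% of 1359 windows of its length held at least as many.

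The beta summits gathered around the second D-J-C cluster and beyond it. Between Trbd2 and Trbc2 lay 2, 3 and 3 summits in the lists of p53 replicate 1, replicate 2, and PPAR-alpha, within 6.019 kb. Between Trbd1 and Trbc1, the first cluster of about the same length, none lay in the 3 lists. The nearest summits to Trbc1 were 6354, 4721 and 1263 bp away. Of windows of the first cluster's 6.465 kb, 99.2%, 98.9% and 99.1% also held none, so its emptiness is common in these lists. Both C segments encode nearly the same constant region, and how reads that match both were treated is not given in the sources used here.

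Trbc2 was the only member with a summit within 1 kb in all 3 lists. In p53 replicate 1 the summits lay 711 bp before it (position 41546019, score 2.18) and 63 bp before it (41546667, score 6.24). In p53 replicate 2 one lay 396 bp before it (41546334, score 1.83) and one inside it (41547342, score 2.97). PPAR-alpha had them 788 bp (41545942, score 3.06) and 255 bp (41546475, score 3.58) before it. The score is the authors' own and serves to describe and rank summits within a list. The list medians were 3.99, 3.62 and 4.70, so 5 of these 6 summits were under the median of their list. Of the 6, 1 pair lay within 100 bp, namely the first ones of p53 replicate 1 and PPAR-alpha, which were 77 bp apart.

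Beside the J segments of the second beta cluster, PPAR-alpha had a summit 211 bp after Trbj2-7 (41544067, score 7.88). It was within 1 kb of Trbj2-3 to Trbj2-7, and Trbj2-6 among them is annotated as a pseudogene. In p53 replicate 2 a summit lay 530 bp after Trbj2-7 (41544386, score 1.34), at the lowest score in that list, and p53 replicate 1 had none within 1 kb of a beta J segment. Trbd2 was 3843, 2210 and 1235 bp from the nearest summit in p53 replicate 1, replicate 2 and then PPAR-alpha. Trbd1 was 12807, 11174 and 7716 bp away.

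The highest scores of the beta locus lay between Trbc2 and Trbv31, more than 1 kb from any segment. All 3 lists had a summit there within 149 bp of each other. It was at 41554496 in p53 replicate 1 (score 11.6, rank 130 of 3608), at 41554347 in p53 replicate 2 (5.88, rank 595 of 4767) and at 41554492 in PPAR-alpha (69.5, rank 52 of 4070). The summits of p53 replicate 1 and PPAR-alpha were 4 bp apart. They lay 6315 and 6311 bp beyond the end of Trbc2 and 3197 and 3201 bp before Trbv31. The p53 replicate 2 summit, 149 and 145 bp from them, was not shared at 100 bp. How often all 3 lists come this close over the whole lists was not computed, for this place or for those beyond Trac. A further pair belonged to the p53 lists alone at 100 bp, at 41553137 in replicate 1 (score 8.81) and 41553126 in replicate 2 (4.33), 11 bp apart. The nearest PPAR-alpha summit to them was 1355 and 1366 bp away. PPAR-alpha had another summit at 41550098 (score 9.27), 401 bp from a p53 replicate 2 summit of score 1.34.

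**Figure D3:**
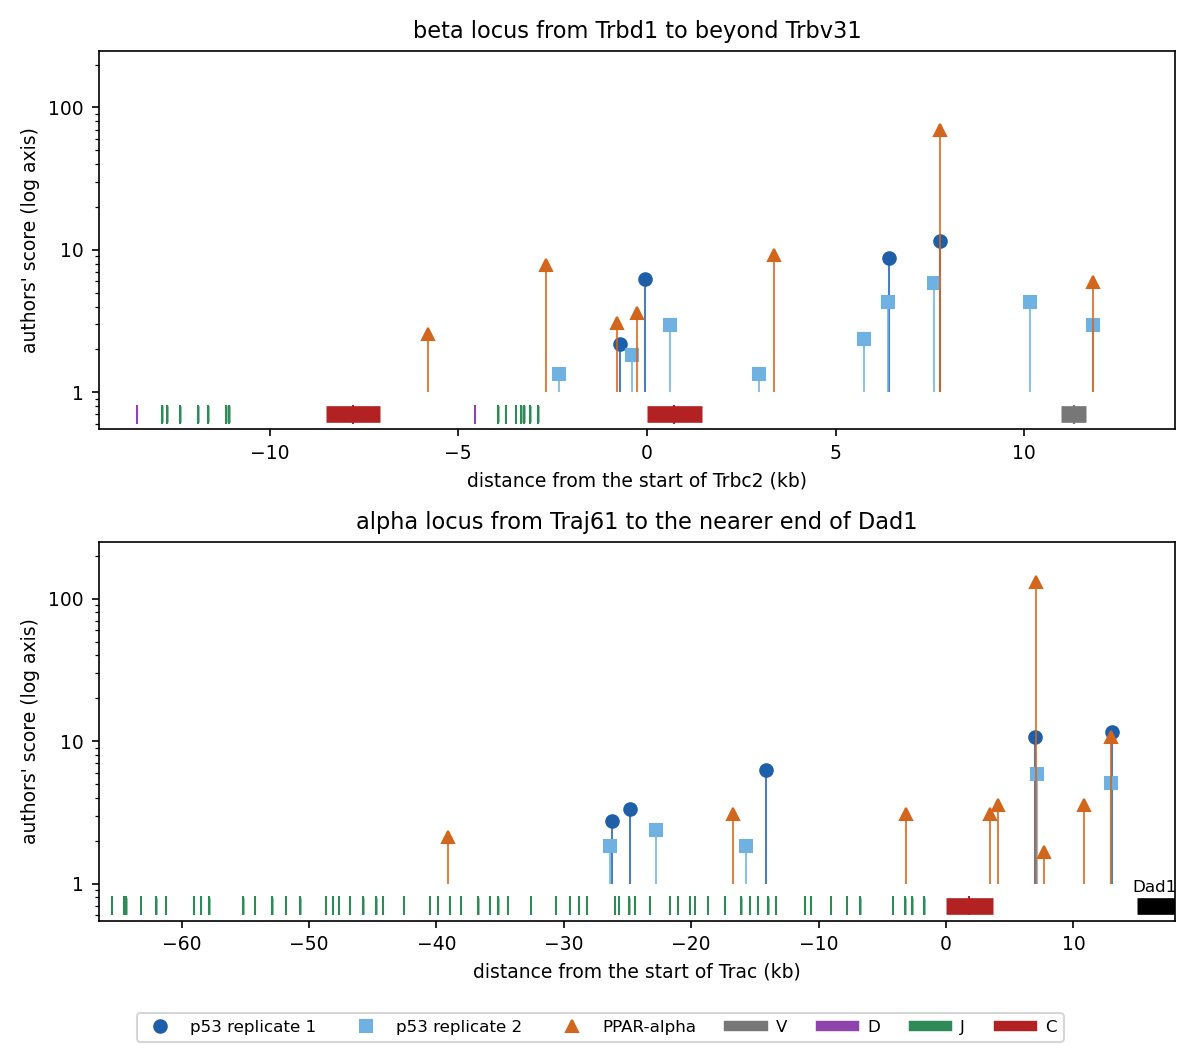
Scores of summits (log axis) against distance in kb from the start of Trbc2 (top) or Trac (bottom), with segments drawn at the foot of each panel in the colour of their class and Dad1 in black. The highest PPAR-alpha scores, 69.5 in beta and 130 in alpha, lie beyond the C segments at places where both p53 lists also have summits.

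Trbv31 is the one beta V segment that lies on the far side of the C segments, and it was the one with summits. PPAR-alpha had a summit 185 bp after it (41558556, score 5.91) and p53 replicate 2 had one 165 bp after it (41558536, score 2.97), 20 bp apart. A further summit of p53 replicate 2 lay 803 bp before it (41556890, score 4.33). In p53 replicate 1 the nearest was 3197 bp away. The 390.7 kb from Trbv1 to the last V segment before Trbd1 held no summit in any list. That is common for its length, since 72.6%, 68.2% and 71.3% of 6286 windows of that length held none in p53 replicate 1, replicate 2 and then PPAR-alpha.

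Along the alpha locus the only V segment near a summit was Trav1, the first of the array. PPAR-alpha had a summit 203 bp before it (52427764, score 5.30) and p53 replicate 2 had one 150 bp before it (52427817, score 3.62), 53 bp apart. In p53 replicate 1 the nearest lay 419221 bp away. From Trav1 to the last V segment before Trdd1, over 1648 kb, no list had a summit. Of 1485 windows of that length, 38.7%, 35.0% and 37.2% held none in p53 replicate 1, replicate 2 and then PPAR-alpha, so the emptiness of the V array is within what these sparse lists show elsewhere. The array holds duplicated V segments of nearly the same sequence, and how reads that match several copies were treated is not given in the sources used here.

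The delta D, J and C segments lie between the alpha V and alpha J segments, and some delta V segments lie among the alpha V segments. None of the 11 delta segments had a summit within 1 kb in the 3 lists. Trdc, the delta constant segment, was 48200, 48051 and 35331 bp from the nearest summit of p53 replicate 1, p53 replicate 2 and PPAR-alpha. Trdd1 was 80832, 80683 and 67963 bp away and Trdd2 was 72067, 71918 and 59198 bp away. For the 35.73 kb from Trdd1 to Trdv5, 95.9%, 94.8% and 95.6% of windows of that length also held none.

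Of the 60 alpha J segments, 7, 6 and 7 were near a summit in p53 replicate 1, replicate 2 and then PPAR-alpha, from 3 summits in each. In p53 replicate 1 these lay 182 bp before Traj26 (54194308, score 2.74), inside Traj24 (54195679, score 3.34) and 127 bp before Traj12 (54206425, score 6.24). In p53 replicate 2 they lay 331 bp before Traj26 (54194159, score 1.83), 461 bp after Traj22 (54197768, score 2.37) and 304 bp after Traj15 (54204785, score 1.83). PPAR-alpha had them 79 bp before Traj37 (54181439, score 2.11), 610 bp after Traj16 (54203804, score 3.06) and 49 bp after Traj3 (54217406, score 3.06). No summit of one list lay within 100 bp of a summit of another in this array, the closest being the Traj26 pair of the p53 lists, 149 bp apart. Over whole lists 15.4 to 20.8% of summits had such a partner in any given other list. How often none would be shared among so few summits was not computed. Of the alpha J summits, all but the one beside Traj12 scored under the median of their list. Segments near a summit in more than 1 list were Traj26, Traj25 and Traj13 in both p53 lists and Traj15 in p53 replicate 2 and PPAR-alpha.

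As a stretch, the 69.19 kb from Traj61 to Trac held 3, 3 and 4 summits, or 4.34, 4.34 and 5.78 per 100 kb. Of 35546 windows of that length, 0.529%, 0.914% and 0.321% held as many or more in p53 replicate 1, replicate 2 and then PPAR-alpha. For the 25.17 kb from Trbd1 to Trbv31, with 15.9, 31.8 and 23.8 per 100 kb, the shares were 0.0430%, 0.00716% and 0.0205% of 97733 windows. Because both stretches were picked for their summits, these shares describe where they rank and support nothing.

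Trac, the alpha constant segment, had a PPAR-alpha summit inside it (54223938, score 3.06) and another 437 bp beyond its end (54224635, score 3.58). Neither p53 list had a summit within 1 kb of it. The strongest summits of the alpha region lay farther on, outside the span of the segments, in the 11.29 kb between Trac and Dad1. PPAR-alpha had a summit 3355 bp beyond Trac (54227553) with a score of 130, rank 35 of 4070 in its list. The p53 summits there lay at 54227532 in replicate 1 (score 10.7, rank 159 of 3608) and 54227649 in replicate 2 (5.88, rank 595 of 4767). These 3 summits spread over 117 bp, with 21 bp between p53 replicate 1 and PPAR-alpha. The p53 summits, 117 bp from each other, were not shared at 100 bp.

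The place nearer to Dad1 held summits of all 3 lists within 38 bp. It was at 54233517 in p53 replicate 1 (score 11.6), 54233489 in p53 replicate 2 (5.08) and 54233479 in PPAR-alpha (10.7). These lay 9319, 9291 and 9281 bp beyond Trac and 1968, 1996 and 2006 bp from the nearer end of Dad1. In p53 replicate 1 the score of 11.6 was the highest of all in or within 50 kb of the 3 loci, and the summit in the beta locus at 41554496 had the same score. Dad1 itself had no summit within 1 kb in any list. In this interval PPAR-alpha had 5 summits and each p53 list 2.

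**Figure D4:**
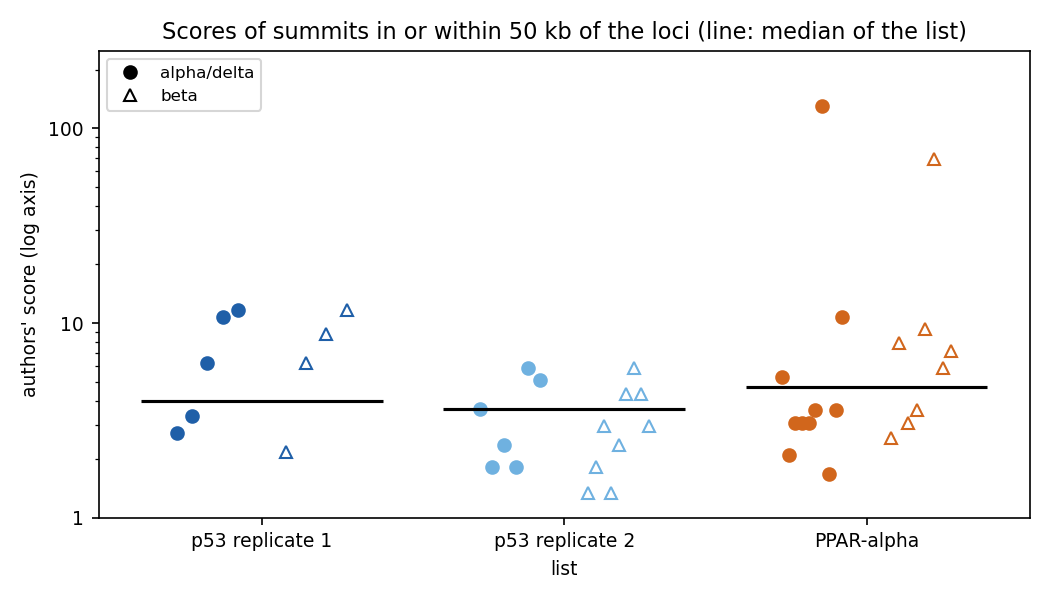
Authors' scores (log axis) of every summit in or within 50 kb of the alpha/delta (filled circles) and beta (open triangles) loci in each list; the black line is the median score of the whole list, and there is no gamma point because no list had a summit there. Most points of p53 replicate 1 lie above its median, and most of p53 replicate 2 and of PPAR-alpha lie around or under theirs. In PPAR-alpha 2 points, at 130 and 69.5, stand far above the others of that list.

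The gamma locus, which thymocytes use for the smaller gamma-delta lineage, held no summit in any list, and none lay within 50 kb of it. The nearest summits were 832 kb after it in p53 replicate 1, 1233 kb before it in p53 replicate 2 and 1482 kb before it in PPAR-alpha. Its 7 V, 4 J and 4 C segments, Trgc1 to Trgc4, were thus all far from binding that was called. Of 14107 windows of its 174.3 kb, 84.6%, 81.3% and 83.8% also held none. With a lack this common, an absence of binding at gamma cannot be told from the sparseness of the lists.

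At 100 bp, 0 to 2 summits of the spans were shared in each pair of lists, too few to set the spans apart from whole lists. Of the 7 summits of p53 replicate 1, 1 (14.3%) met p53 replicate 2 and 2 (28.6%) met PPAR-alpha. Of the 11 of p53 replicate 2, 1 (9.09%) met replicate 1 and 0 met PPAR-alpha, and of the 10 of PPAR-alpha, 2 met p53 replicate 1 and 0 met replicate 2. Over whole lists, p53 replicate 1 met replicate 2 with 20.8% and PPAR-alpha with 17.4% of its summits, and p53 replicate 2 met replicate 1 with 15.7% and PPAR-alpha with 15.6%. PPAR-alpha met p53 replicate 1 with 15.4% and replicate 2 with 18.3% of its summits. With 50 kb added on each side, which brings in the interval beside Dad1, 4 of 9 summits of p53 replicate 1 and 4 of 15 of replicate 2 met PPAR-alpha. Of the 18 of PPAR-alpha, 4 met each p53 list. The p53 lists then met each other with 2 of 9 and 2 of 15.

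Few other genes in and around the loci had summits, and few genes do elsewhere. Over all genes of the table, 6.86%, 8.63% and 7.11% had one within 1 kb in p53 replicate 1, replicate 2 and PPAR-alpha. The low counts that follow therefore do not set the loci apart. The 19 other genes inside the alpha/delta span, olfactory receptor genes among them, and the 18 inside the beta span, trypsin genes among them, had none within 1 kb in the 3 lists. Of the 12 genes beside the loci, 1 had a summit. This was Ephb6, an Eph-family receptor gene without kinase activity, with a PPAR-alpha summit at 41605283 (score 7.20) and no p53 summit within 1 kb. That summit lay at base 23 of the RefSeq promoter sequence of the gene on GRCm38.p6, chr6:41605261-41605560, plus strand. The sequence is shown because it is the one promoter beside these loci under a summit, and no segment had an entry in that table. Capitals mark the 21 bases centred on the summit.
Ephb6: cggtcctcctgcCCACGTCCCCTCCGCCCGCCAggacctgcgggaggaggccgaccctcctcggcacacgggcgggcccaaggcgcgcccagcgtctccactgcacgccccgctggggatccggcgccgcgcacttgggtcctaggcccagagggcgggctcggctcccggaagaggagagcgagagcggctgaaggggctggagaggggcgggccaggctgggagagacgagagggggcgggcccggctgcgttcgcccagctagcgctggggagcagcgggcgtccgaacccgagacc
The letters AGGTCA, the half-site that nuclear receptors such as PPAR-alpha recognise, were not in this window on either strand. They are in 16.3% of the 32851 promoter sequences of the table. With the summit at base 23, the window holds little sequence before it, and no other form of the site was searched. The lack of these letters therefore says nothing about PPAR-alpha binding here.

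The segments of the immunoglobulin loci, which B cells rearrange by the same machinery, were set beside them. Of 395 such segments, 1 (0.253%) was near a summit in p53 replicate 1, 2 (0.506%) in p53 replicate 2 and 7 (1.77%) in PPAR-alpha, and all were heavy chain V segments. None of the 20 D, 14 J and 13 C segments of immunoglobulin genes was near one in the 3 lists. Among T cell receptor segments, J and C segments held most of the counts. Over all genes 6.86%, 8.63% and 7.11% were near a summit, and among genes of 1 kb or less 1.59%, 1.88% and 2.08%. With such shares, 0 among so few immunoglobulin D, J and C segments does not set them apart. The T cell receptor J counts rest on only 3, 4 and 4 distinct summits. The difference between the receptor families was not tested. The kappa and lambda loci held no summit in any list, over 3171 and 199.1 kb. Of windows of the kappa length, 21.6%, 17.5% and 19.2% also held none in p53 replicate 1, replicate 2 and PPAR-alpha. For the lambda length these were 83.0%, 79.5% and 82.2%, so its emptiness is common in these lists. The heavy chain locus on chromosome 12 held 10, 12 and 21 summits, in the same order of lists. Per 100 kb this was 0.363, 0.436 and 0.763, under the 0.600, 1.20 and 0.899 of the beta locus and above the 0.167, 0.167 and 0.223 of the alpha/delta locus. Of 884 windows of the heavy chain locus's length, 11.2%, 13.9% and 2.71% held as many summits or more. For the beta locus these shares were 8.11%, 2.69% and 4.49%, so in PPAR-alpha the heavy chain locus stood out more.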

How the data were processed

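For each immunoprecipitated library the authors deposited 1 list of summits with a score, taken here to be a −log10 p- or q-value. This reading rests on its range and is stated by no label. The submitters' processing notes list MACS2 2.1.2, Bowtie2 2.3.4.2 and Picard 2.9.0 without roles, settings or thresholds, and the reads per library are unknown. The notes name GRCh38 for mouse tissue, so positions were checked against GRCm38.p6. Of the summits of p53 replicate 1, replicate 2 and PPAR-alpha, 49.2%, 49.0% and 42.0% were no more than 1 kb from an end of a coding gene. After moving them by 5 to 50 kb the shares were 6.24 to 8.20%.

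Positions count from 1. A segment was near a summit within 1 kb of either end or inside, and summits within 100 bp were shared. Windows of a locus's length ran consecutively over the 19 autosomes, from base 1 to the last gene. Counting (Python 3.11.15, pandas 2.3.3, numpy 2.4.6, intervals with scipy 1.17.1) was tested on simulated data. Text names all C and D segments, those near summits in 2 or 3 lists and those nearest the highest-scoring summit of each locus. Other segments beside alpha J, beta J and Trac summits were named after their values were seen. Members, lists and stretches were chosen with earlier results of these data known.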

Additional observations from a re-analysis of the deposited data

How the results depend on the processing

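With few summits per locus, 74 of 143 values under alternatives moved by over 1.5 times. J segments had the highest count of the 4 classes at 500 bp and at 5 kb in each list. Their close spacing raises such counts, as one summit reaches several of them. At 0 bp they had 0 and C segments 1 in p53 replicate 2 and PPAR-alpha. At scores of 5 or more all classes had 0 in p53 replicate 2. Values follow the order p53 replicate 1, p53 replicate 2, PPAR-alpha. Segments near a summit were 1, 1 and 1 at 0 bp, 5, 7 and 9 at 500 bp, 32, 34 and 39 at 5 kb, 4, 0 and 7 at scores of 5 or more, and 0, 0 and 0 at 10 or more. Without dense runs (4 or more other summits within 10 kb) p53 replicate 2 had 7 and PPAR-alpha 9. Leaving out a replicate gave 8 to 13 for the joined p53 lists, which had 17, 8 being without replicate 2.

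By class, V segments numbered 0 at 0 bp in p53 replicate 2 and PPAR-alpha, 1 at 5 kb in p53 replicate 1, and in p53 replicate 2 they were 0 at scores of 5 or more and 1 without dense runs. D segments were 1, 1 and 1 at 5 kb, the first setting to reach Trbd2. J segments were 1, 0 and 0 at 0 bp, 4, 4 and 5 at 500 bp, 28, 28 and 33 at 5 kb, and 3, 0 and 5 at scores of 5 or more; without dense runs p53 replicate 2 had 6 and PPAR-alpha 7. C segments were 0 in p53 replicate 1 and 1 in PPAR-alpha at 0 bp, 2 and 3 at 5 kb in the p53 lists, and 0 in p53 replicate 2 and PPAR-alpha both at scores of 5 or more and without dense runs.

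Summits in the alpha/delta span were 5, 6 and 10 with 20 kb added, 1, 0 and 0 at scores of 5 or more, and 0, 0 and 0 at 10 or more. In the beta span p53 replicate 2 had 1 and PPAR-alpha 3 at scores of 5 or more, the lists had 1, 0 and 1 at 10 or more, and p53 replicate 2 and PPAR-alpha had 0 without dense runs, since these summits form such runs. Gamma stayed at 0 under the alternatives run. Summits shared between p53 replicate 1 and PPAR-alpha fell to 1 at 50 bp and to 1 at scores of 5 or more. At 500 bp, 5 of p53 replicate 1 met replicate 2 and 4 in return, 4 of p53 replicate 2 met PPAR-alpha and 5 in return, and the p53 lists shared 0 at scores of 5 or more. No paired analysis was possible because the results come from no test and PPAR-alpha has 1 library. The depth of each library is unknown, so an empty stretch is a lack of called summits and not of binding.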
